A study of Mus musculus with 12 samples.

Results

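The miR-297, miR-466, miR-467 and miR-669 families were examined in liver small RNA from mice with carbon tetrachloride (CCl4) injury. Members were all rows of the deposited miRNA count table whose name carries 1 of these 4 family numbers, on any arm, which gave 65 of 1929 rows. The table holds 12 liver libraries from C57BL/6 mice, all given CCl4 by intraperitoneal injection as a model of hepatic fibrosis. In 6 of them double distilled water was given daily by the intragastric route (the water group), and in the other 6 Pien Tze Huang (PZH), a traditional Chinese medicine, was given in its place (the PZH group). Both groups therefore carry the injury, no uninjured liver is analysed here, and the labels give no age, sex, dose or duration. The labels number the livers 1 to 6 in each group without saying that each came from a separate animal, so p-values measure the spread between these samples.

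These miRNAs belong to a rodent-specific group that has multiplied in tandem within an intron of Sfmbt2, a Polycomb group gene that is imprinted and read from the paternal chromosome in extraembryonic tissue. Each copy is a short hairpin that is cut into a 5p and a 3p strand, and the strand that is kept guides Argonaute to messenger RNAs through its seed, the bases near the 5′ end. The cluster is known for its activity in placenta and in embryonic stem cells, and loss of it disturbs growth of the mouse placenta.

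In the GENCODE M21 annotation of GRCm38, 81 hairpin genes carry these family numbers. Of these, 71 lie on the plus strand of chromosome 2 between 10466663 and 10518279, a stretch of 51.6 kb. The stretch falls wholly inside intron 10 of the transcript Sfmbt2-201, from 10461473 to 10523944. Some copies recur many times, with 10 hairpins named Mir467a, 12 named Mir669a and 8 named Mir466b. The row miR-467a-5p stands for all 10 of its hairpins. No row is named miR-466b, and the only miR-669a row, miR-669a-3-3p, stands for 1 hairpin. Where reads of the other Mir669a and of the Mir466b hairpins were counted, if at all, is not known. By name, 54 of the 65 rows come from hairpins in Sfmbt2 alone, 8 from hairpins elsewhere in the genome, and the 3 rows of miR-466f from both. The family label Sfmbt2 thus does not hold by position for those 8 rows.

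RefSeq (GRCm38.p6) gave a mature sequence for 8 of the 65 rows, and these are the 8 rows from hairpins outside Sfmbt2. They are shown because their summed level is set against that of the Sfmbt2 rows below. They do not show the letters of the copies in Sfmbt2, for which no sequence was available. The capitals mark the seed, bases 2 to 8.
miR-466i-3p: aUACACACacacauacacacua
miR-466q: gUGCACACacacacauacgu
miR-467f: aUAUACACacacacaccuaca
miR-467g: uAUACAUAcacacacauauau
miR-466j: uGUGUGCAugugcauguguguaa
miR-466k: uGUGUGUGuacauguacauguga
miR-467h: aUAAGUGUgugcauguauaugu
miR-669n: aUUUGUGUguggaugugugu
In GRCm38.p6 they lie at chr13:17747552-17747573 on the plus strand (miR-466i-3p), chr3:28419988-28420007 plus (miR-466q), chr11:69635419-69635439 minus (miR-467f), chr5:34732872-34732892 minus (miR-467g), chr10:60960802-60960824 plus (miR-466j), chr3:85467396-85467418 plus (miR-466k), chr9:115381898-115381919 plus (miR-467h) and chr3:115979905-115979924 plus (miR-669n). The first 4 are built on alternating A and C and the last 4 on alternating U and G. A run of 8 letters alternating between U and G or between A and C was searched for on the mature strand, with longer runs counted once. It stood in 6 of the 8, against 0.729% of the 1647 rows of the whole table that had a sequence. The longest runs were 12 letters in miR-466q and in miR-467f, while miR-466j and miR-467h had runs of 7. No seed was shared among the 8, and that of miR-467h was shared with miR-668-5p. Members such as miR-467a-5p, miR-669o-3p, miR-466p-3p, miR-466d-3p and miR-466m-3p are named only. How the authors assigned reads that match several of these copies is not given in the sources used here, so each row carries an unknown share of reads from its relatives.

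The families were a very small part of the liver profile, and a single row held most of it. Over the 12 libraries the 65 rows held 13254 counts, of which miR-467a-5p had 7087, or 53.5%. The families' share of all counts was 0.0111% ± 0.00106 in the water livers and 0.0112% ± 0.00244 in the PZH livers. Throughout, ± is the SD over the 6 libraries of a group (n = 6). Library totals ran from 4961913 to 20211784 counts, and the hepatocyte miRNA miR-122-5p lay between 90316 and 126884 CPM. Here and below, CPM is the count scaled to a common library total after TMM normalization, which makes libraries of different depth comparable.

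By mean level over the 12 libraries, miR-467a-5p stood 203rd of 1929 rows at 60.1 CPM and was the one member above 10 CPM. The next were miR-467e-5p at 4.48 CPM, miR-669p-5p at 4.16, miR-467b-5p at 3.93, miR-669o-3p at 3.83 and miR-467d-5p at 3.33. In all, 16 members lay between 1 and 10 CPM and 48 below 1 CPM. Each count stands for 1 short strand of nearly fixed length, but a row can gather several hairpins and reads of its relatives, so this order is that of rows and not of single hairpins. Every one of the 65 rows had counts in at least 1 library, 16 had counts in all 12, and 16 in fewer than 6. Within a library, between 36 and 53 members were detected. The mean number was 45.8 ± 6.18 for water and 43.2 ± 4.62 for PZH livers, and 41.5 and 40.3 after each library was thinned to the smallest total. The deposited table holds no cell with the value 1, so detection here stands for 2 or more counts, except in the thinned libraries.

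**Figure D1:**
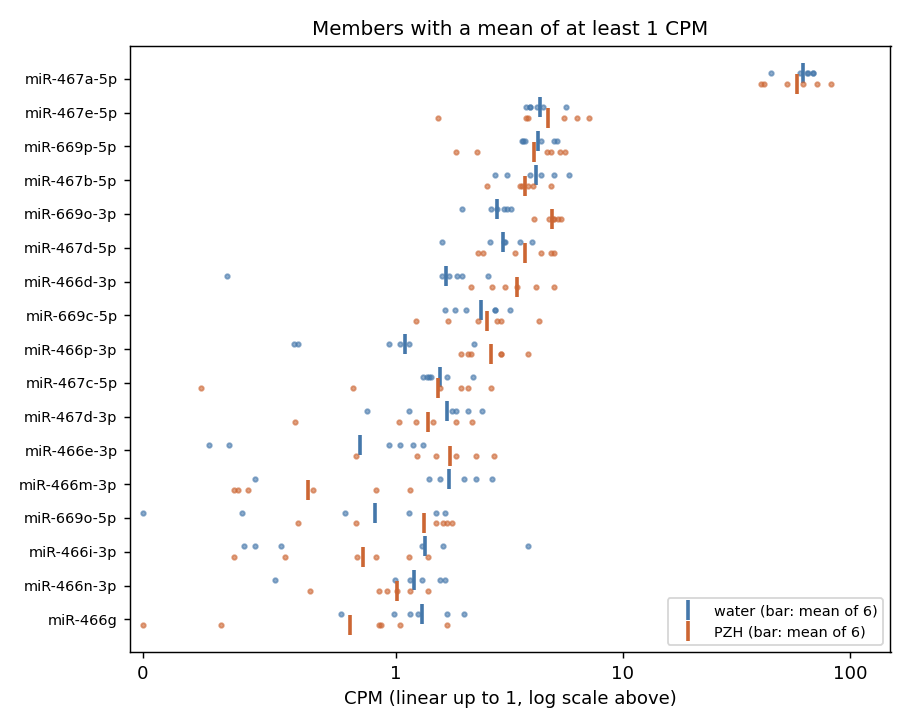
Level of each member with a mean of at least 1 CPM, in CPM on an axis that is linear up to 1 and logarithmic above it. Points are the 6 water and 6 PZH libraries and bars are group means; miR-467a-5p stands at 60.1 CPM, while miR-467e-5p, the next, stands at 4.48 CPM.

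The comparison of the study asks which miRNAs of injured liver differ between mice given PZH and mice given water. Of the 15 members that passed the filter on low counts, miR-669o-3p, miR-466p-3p and miR-466d-3p rose with PZH and miR-466m-3p fell. The abundant miR-467a-5p and the other 10 tested members were not called. This is 4 of 15 (26.7%), beside 21.3% of all 607 tested miRNAs, and the 2 shares are close. With DESeq2 4 of 15 were called as well, where 23.7% of all miRNAs were, and with limma-voom 2 of 15, where 19.9% were. The edgeR count of called members was 2 when any 1 of water livers 1, 5 and 6 and PZH livers 3, 4, 5 and 6 was left out, with 15 to 17 members tested in those fits. By direction, 3 members were called higher, where 9.88% of all tested miRNAs were, and 1 lower, where 11.4% were. A member counts as called where the quasi-likelihood test of edgeR gave a p under 0.05 after Benjamini-Hochberg adjustment over all 607. The median log2 fold change of the tested members was 0.12, beside -0.03 over all tested miRNAs.

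The filter asks for about 1.10 CPM in 6 libraries, and 7 of the 15 tested members reached it in all 12. Of the called members, miR-669o-3p was among those 7. In contrast, miR-466p-3p reached the level in 6 PZH libraries and 1 water library, and miR-466m-3p in 5 water libraries and 1 PZH library. These last 2 were tested because 1 group was high, and their part in the count of calls is no sign of a shift of the families.

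The clearest difference was that of miR-669o-3p. Its levels with water were 2.81, 3.23, 2.62, 3.10, 1.95 and 3.0 CPM for livers 1 to 6, and with PZH 4.93, 5.32, 5.0, 4.05, 4.73 and 5.19 CPM. Every PZH liver lay above every water liver, and this was the one tested member whose groups did not overlap, where the groups of 10% of all tested miRNAs did not. The level was 1.75-fold higher with PZH (log2 fold change 0.80, SE 0.18, edgeR adjusted p = 0.00583). The call was kept in each of the 12 fits without 1 library and ended in the edgeR fit without a filter (adjusted p = 0.06). Its hairpin lies at 10514300 to 10514395, near the far end of the cluster.

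For miR-466p-3p the water livers held 0.616, 1.15, 1.05, 2.21, 0.976 and 0.599 CPM. The PZH livers held 2.16, 2.08, 2.92, 2.91, 3.83 and 1.93 CPM. Water liver 4 alone reached into the PZH range, and 3 PZH livers lay above it. The level was 2.38-fold higher with PZH (log2 fold change 1.25, SE 0.32, edgeR adjusted p = 0.0119), a call kept in all 19 alternatives. By name its hairpin lies at 10506006 to 10506094, though reads of the row may come from other hairpins as well.

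The water livers held 1.71, 2.55, 1.96, 0.332, 1.86 and 1.6 CPM of miR-466d-3p, from a hairpin at 10511967 to 10512062. With PZH the levels were 2.16, 2.66, 5.0, 3.43, 4.16 and 3.02 CPM. Only PZH liver 1 did not exceed the highest water liver, and water liver 4 was the lowest of the 12. The log2 fold change was 1.0 (SE 0.34, edgeR adjusted p = 0.0474). This call lay close to the threshold and ended in 12 of 19 alternatives, 9 of them fits without 1 library (water liver 1, 3, 4, 5 or 6, or PZH liver 3, 4, 5 or 6). Over the 19, the edgeR, DESeq2 or limma-voom adjusted p ran from 0.0132 to 0.114.

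The related miR-466e-3p showed values of like size without a call. With water it stood at 0.342, 1.04, 0.262, 1.33, 0.976 and 1.2 CPM, and with PZH at 1.85, 1.5, 2.26, 1.25, 2.70 and 0.845 CPM. The groups overlapped, with PZH livers 4 and 6 inside the water range and the other 4 above it (log2 fold change 1.03, SE 0.40, edgeR adjusted p = 0.0824). Whether these 3p rows of miR-466 share reads was not tested.

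The opposite direction was seen in miR-466m-3p, from the first hairpin of the cluster at 10466663 to 10466746. Water livers held 2.26, 1.41, 1.57, 0.442, 2.66 and 2.0 CPM, and PZH livers 0.924, 1.16, 0.377, 0.415, 0.675 and 0.362 CPM. Water liver 4 alone lay in the PZH range, and all 6 PZH livers lay below the water median of 1.78 CPM. The level was 2.68-fold lower with PZH (log2 fold change -1.42, SE 0.42, edgeR adjusted p = 0.0261). The call ended in 9 of 19 alternatives, 7 of them without 1 library (water liver 1, 5 or 6, or PZH liver 3, 4, 5 or 6; adjusted p over the 19 from 0.00922 to 0.103). It rests on 116 counts in the water livers against 33 in the PZH livers.

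**Figure D2:**
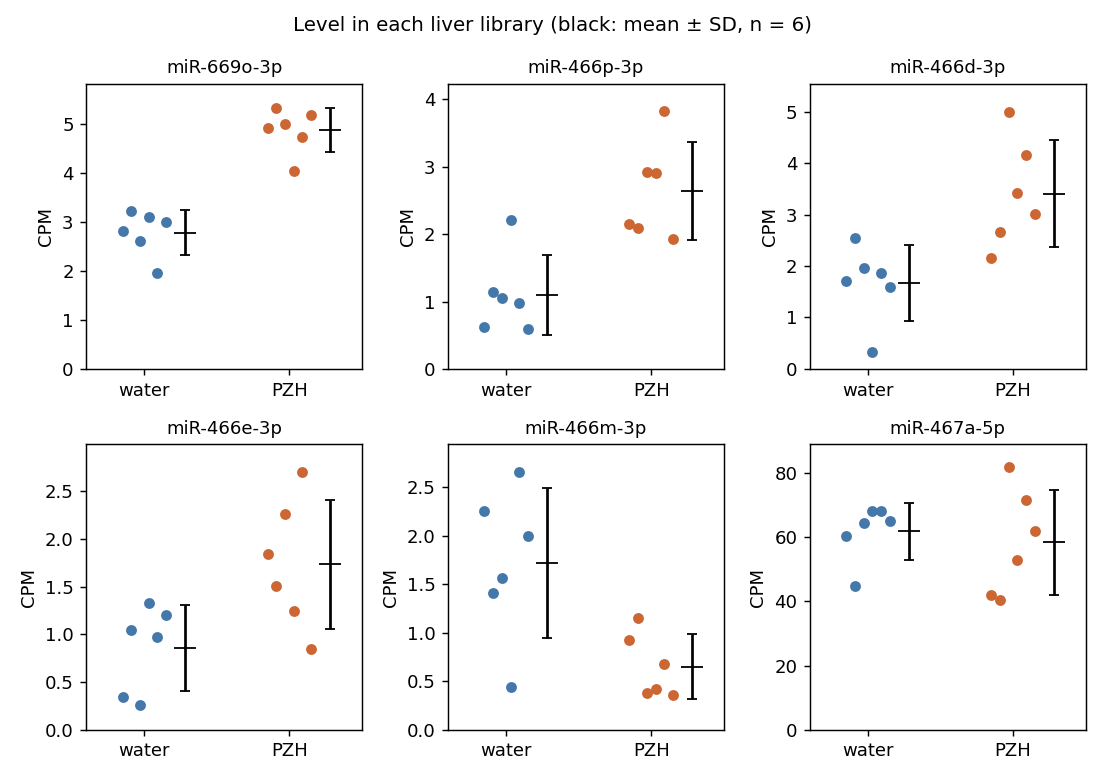
CPM of 6 members in each library, water in blue and PZH in orange, with the mean and SD of 6 libraries in black on axes from 0. The PZH points of miR-669o-3p (4.05 to 5.32 CPM) lie wholly above the water points (1.95 to 3.23 CPM), while those of miR-467a-5p spread on both sides of the water points.

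The most abundant member gave no call. With water miR-467a-5p stood at 60.2, 44.7, 64.4, 68.2, 68.2 and 64.9 CPM, and with PZH at 41.9, 40.5, 81.8, 52.9, 71.5 and 61.8 CPM. PZH livers 1 and 2 lay below every water liver and PZH livers 3 and 5 above every one, and the SD was 16.5 CPM for PZH and 8.87 CPM for water livers. The log2 fold change was -0.08, with a 95% confidence interval of -0.44 to 0.29 (edgeR adjusted p = 0.861). Of the counts of the 65 rows it took 54.7% ± 4.8 in the water livers and 52.6% ± 5.82 in the PZH livers.

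No tested 5p strand was called, out of 8, with log2 fold changes between -0.14 and 0.56. Among the miR-467 rows, the means of miR-467e-5p were 4.30 ± 0.692 CPM for water and 4.66 ± 2.03 CPM for PZH livers (log2 fold change 0.14, 95% confidence interval -0.46 to 0.73). The spread of that row with PZH ran from 1.54 CPM in liver 1 to 7.07 CPM in liver 3. For miR-467b-5p the means were 4.15 ± 1.15 and 3.72 ± 0.739 CPM (log2 fold change -0.14, interval -0.62 to 0.34). Of the others, miR-467d-5p had a log2 fold change of 0.33 (interval -0.24 to 0.89) and miR-467c-5p of -0.01 (interval -0.85 to 0.82). The miR-669 rows of this strand were miR-669p-5p at -0.04 (interval -0.61 to 0.52), miR-669c-5p at 0.12 (interval -0.50 to 0.74) and miR-669o-5p at 0.56 (interval -0.59 to 1.72). The intervals of miR-467d-5p, miR-467c-5p and miR-669o-5p reach past the 0.80 seen in miR-669o-3p, and the absence of a call does not show equal levels. Values near 0 changed sign with total-count scaling for miR-467c-5p and miR-669p-5p, and without 1 library also for miR-467a-5p, miR-467e-5p and miR-669c-5p.

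All 4 calls fell on 3p strands, out of 7 tested, with the uncalled miR-466e-3p, miR-467d-3p (-0.22) and miR-466n-3p (-0.29) as the rest. Over all tested miRNAs 21.3% were called, and of these 4 members miR-466p-3p and miR-466m-3p passed the filter mainly through the group in which they were high. The difference between strands was not tested. Both strands passed the filter for 2 hairpins. For Mir669o the 3p strand went from 2.78 ± 0.461 to 4.87 ± 0.452 CPM and the 5p strand from 0.917 ± 0.645 to 1.34 ± 0.486 CPM, both higher on average. For Mir467d the 5p strand went from 2.96 ± 0.819 to 3.70 ± 1.18 CPM and the 3p strand from 1.69 ± 0.572 to 1.39 ± 0.564 CPM, and neither was called. The partner strands of the other called rows were below the filter. Of these, miR-466p-5p held 44 counts in the water livers and 15 in the PZH livers, against 73 and 141 for miR-466p-3p. For miR-466m-5p the counts were 54 and 24, and miR-466d-5p had 10 counts in all. Such counts are not scaled for depth. In CPM, miR-466p-5p stood at 0.697 ± 0.403 with water and 0.268 ± 0.257 with PZH, and miR-466m-5p at 0.759 ± 0.470 and 0.450 ± 0.516.

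Summed over rows of a family and strand, which depends less on how reads were split between copies, the groups overlapped in each case. The 10 rows of miR-466 3p strands summed to 8.41 ± 1.91 CPM in the water livers and 10.9 ± 2.0 CPM in the PZH livers. The 8 rows of miR-466 5p strands summed to 3.32 ± 0.757 and 2.0 ± 1.08 CPM. For miR-669 the 12 rows of 3p strands summed to 6.23 ± 1.40 and 7.56 ± 1.04 CPM, and the 10 rows of 5p strands to 10.3 ± 0.932 and 11.3 ± 3.44 CPM. The 5 rows of miR-467 5p strands, dominated by miR-467a-5p, summed to 74.7 ± 8.81 and 72.0 ± 19.5 CPM. No test was made on sums over members.

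Along the intron, calls stood beside rows without one. Distances are from the start of the first hairpin. Rows are placed by name, and reads of a row may come from other hairpins. The called decrease, miR-466m-3p, lies at 0 kb and the called increases at 39.3 kb (miR-466p-3p), 45.3 kb (miR-466d-3p) and 47.6 kb (miR-669o-3p). Between 39.1 and 47.6 kb lie also miR-467e-5p (0.14), miR-467d-5p (0.33), miR-467d-3p (-0.22), miR-669c-5p (0.12), miR-466n-3p (-0.29) and miR-669o-5p (0.56), none of them called. Nearer the start, miR-466e-3p at 12.4 kb stood at 1.03, also without a call. Uncalled there as well were miR-467c-5p (-0.01), miR-467b-5p (-0.14) and miR-669p-5p (-0.04). The miR-467a hairpins run from 9.7 to 36.6 kb, and their single row stood at -0.08.

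**Figure D3:**
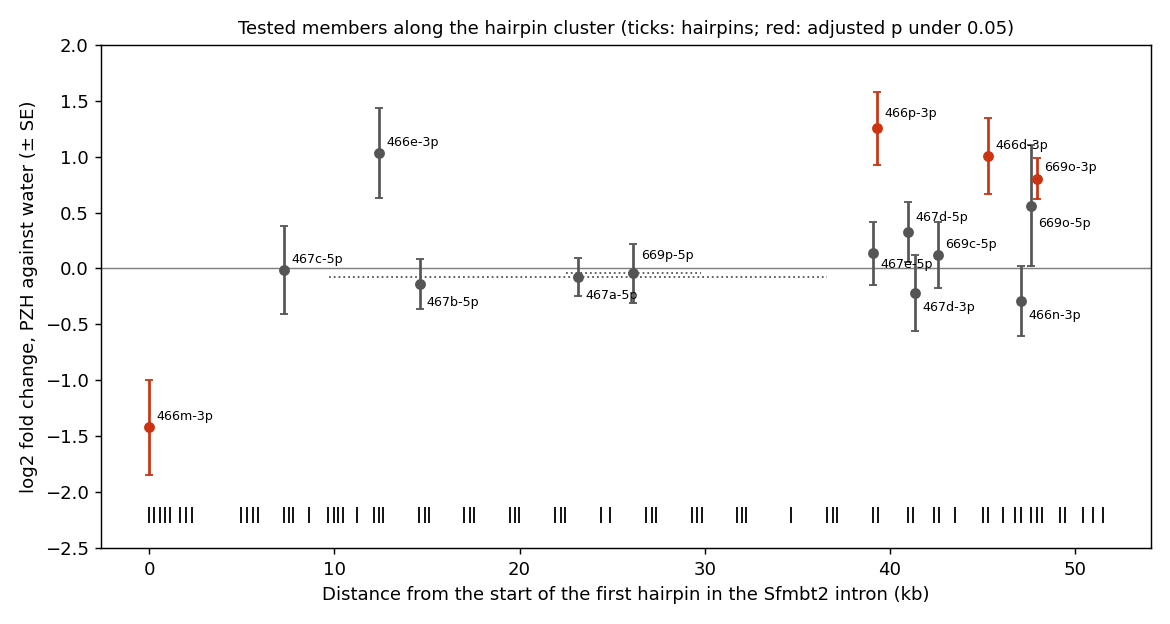
Log2 fold change of the 15 tested members, PZH against water, with its SE, against distance along the Sfmbt2 intron in kb; ticks mark the 71 hairpins, dotted lines span members with several hairpins (plotted at the middle), and 2 points of 3p strands are moved slightly right of their 5p partner. Placed by name, called members (red) lie at 0 kb (miR-466m-3p, -1.42) and at 39.3, 45.3 and 47.6 kb (1.25, 1.0 and 0.80). Uncalled members beside these increases lie between -0.29 and 0.56, and the uncalled miR-466e-3p lies at 12.4 kb (1.03).

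The 54 rows from Sfmbt2 alone summed to 108 ± 8.68 CPM in the water livers and 107 ± 22.4 CPM in the PZH livers. The PZH livers ranged from 79.7 to 137 CPM and enclosed the water range of 91.3 to 116 CPM. The 8 rows from hairpins elsewhere, whose sequences are given above, were lower in the PZH livers as a sum. They held 5.75, 6.04, 5.36, 3.65, 7.27 and 0.799 CPM with water and 2.16, 3.13, 3.02, 3.84, 1.80 and 1.81 CPM with PZH. This sum and its alternatives were chosen after the data were seen. Of the water livers, 4 lay above every PZH liver, and water liver 6, the shallowest library, lay below all others. The log2 ratio of the means was -0.87. It was -0.45 when each library was thinned to the smallest total and single counts were set to 0, with 19.2 ± 12.02 counts in the water livers and 14.0 ± 4.47 in the PZH livers, a difference within the spread. The low rows inside Sfmbt2 were lower with PZH as a sum, but not row by row. The 39 of them below the filter summed to 14.2 ± 2.93 CPM in the water livers and 11.2 ± 2.46 CPM in the PZH livers. The log2 ratio was -0.34, or -0.25 after thinning. The thinned sums were 64.8 ± 20.7 counts with water and 54.5 ± 10.3 with PZH, and their ranges overlapped (45 to 86 and 42 to 67). Of the 39 rows, 19 had a higher and 20 a lower mean with PZH. For all 50 members below the filter the log2 ratio was -0.46, or -0.31 after thinning. None of the 8 rows passed the filter, and 6 had a lower and 2 a higher mean with PZH.

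**Figure D4:**
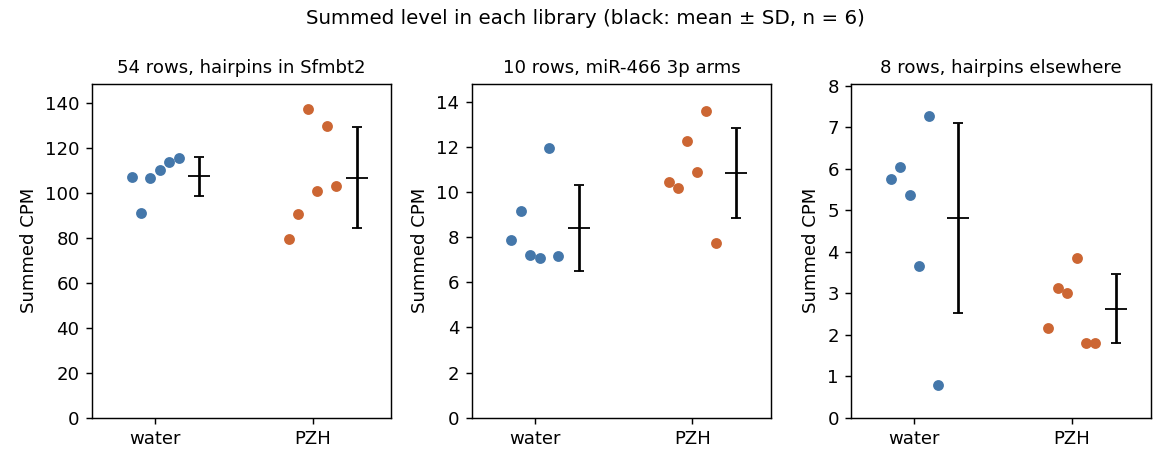
Summed CPM in each library for 54 rows with hairpins in Sfmbt2, 10 rows of miR-466 3p strands and 8 rows with hairpins elsewhere, water in blue and PZH in orange, with the mean and SD of 6 libraries in black on axes from 0. The Sfmbt2 sums overlap fully (91.3 to 116 against 79.7 to 137 CPM), and in the sums from elsewhere 4 water livers lie above all PZH livers and 1 below them.

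The 50 members below the filter held between 2 and 144 counts each over all libraries, and 22 had a higher and 28 a lower mean with PZH. In an edgeR fit without the filter, where 5.39% of 1929 miRNAs were called (2.75% higher and 2.64% lower), the one member called was miR-466p-3p (log2 fold change 1.29, adjusted p = 0.0372), and 11 of 65 had an unadjusted p under 0.05, where 330 of all 1929 did, much the same share. Of rows outside the main test, picked here after their values were seen, miR-669n held 63 counts in water livers and 8 in PZH livers (edgeR adjusted p = 0.102 without the filter). Scaled for depth, these were 0.819 ± 0.537 and 0.166 ± 0.202 CPM. The most abundant miR-297 row, miR-297c-3p, held 54 and 10 counts (edgeR adjusted p = 0.102 without the filter). Its levels were 1.10, 0.156, 1.44, 0.884, 0.887 and 1.2 CPM with water and 0, 0.463, 0, 0.208, 0.225 and 0.241 CPM with PZH, with water liver 2 inside the PZH range. Counts in the other direction came from miR-669g, picked likewise, with 2 in water livers and 19 in PZH livers (edgeR adjusted p = 0.159 without the filter). Scaled for depth, these were 0.0174 ± 0.0425 and 0.341 ± 0.282 CPM.

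Outside the families, 6 miRNAs of the table hold the same kind of alternating run, and 3 of them passed the filter. They are shown for the 2 that differ most in result.
miR-3082-5p: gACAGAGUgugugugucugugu
miR-32-3p: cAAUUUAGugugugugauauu
The mean level of miR-3082-5p was 3.24 ± 1.25 CPM in water livers and 1.36 ± 0.530 CPM in PZH livers, a called decrease (log2 fold change -1.28 with an SE of 0.33, edgeR adjusted p = 0.0111). In contrast, miR-32-3p stood at 7.72 ± 1.89 and 7.69 ± 1.73 CPM (log2 fold change -0.0018; edgeR, adjusted p = 0.998), and miR-574-5p had a log2 fold change of -0.52 (edgeR adjusted p = 0.350). That is 1 of 3 called, beside 21.3% of all tested miRNAs, and nothing is read from so small a count.

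Over the 12 libraries miR-467a-5p was compared with each of the other 14 tested members on the scale of log2 (CPM + 0.5). None of the 14 relations passed adjustment. By Pearson's r the strongest was with miR-467e-5p (Pearson r = 0.605, permutation p = 0.0328, adjusted p = 0.460; Spearman rho = 0.497, permutation p = 0.104, adjusted p = 0.639). By Spearman's rho it was with miR-669p-5p (rho = 0.524, permutation p = 0.0834, adjusted p = 0.639). For miR-467e-5p, r was 0.338 without the 2 libraries farthest from the median of miR-467a-5p, PZH livers 1 and 2. Leaving them out also narrows the range of miR-467a-5p, so how far the relation rests on them cannot be told. Within groups the r of miR-467e-5p was -0.170 for water and 0.760 for PZH (n = 6 each), given as a description. Rows may hold reads of their relatives, and the part of such reads in these relations was not tested.

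Bulk liver mixes cell types, and fewer cells of a type cannot be told apart from less RNA per cell. Of 8 miRNAs that mark pluripotent cells, where the Sfmbt2 cluster is known to be active, 6 were below the filter with 4 to 104 counts each in all libraries. The other 2 were miR-295-3p with 689 counts and miR-302d-3p with 7289. Of the same family number, miR-302a-3p and miR-302b-3p held only 4 and 19 counts. The row miR-302d-3p was lower with PZH (log2 fold change -0.77, edgeR adjusted p = 0.0474). Along with miR-302d-3p, both miR-294-3p (104 counts) and miR-295-3p had counts in all 12 libraries. Whether any of these rows came from pluripotent cells was not tested. The 8 summed to between 58.6 and 112 CPM with water and 33.1 and 99.4 CPM with PZH, with most counts from miR-302d-3p. Other marker lists also held calls, all lower with PZH, with 2 of 2 endothelial, 1 of 5 leukocyte and 2 of 5 epithelial miRNAs, where 21.3% of all tested miRNAs were called and 11.4% were called lower. Their sums were 12863 to 17096 against 10272 to 13900 CPM, 4147 to 5972 against 3091 to 5513 CPM, and 931 to 2192 against 864 to 1246 CPM, water against PZH, and no list was at 0. The hepatocyte, mesenchymal, erythroid and neural lists held none among 4, 4, 3 and 2 tested. The part of these cell types in the results was not tested.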

How the data were processed

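Small RNA from 12 mouse liver samples was measured with the TruSeq Small RNA kit. The deposited table gives raw counts per mature miRNA, with no normalization by the authors. The submitters' processing notes name cutadapt, FastQC, BWA, DESeq2 and GRCm38. The counting tool, the use of strand and the treatment of reads matching several miRNAs have no description in the sources used here.

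The members and lists were chosen with earlier results of these data known. Counts were compared with edgeR 4.0.16 (quasi-likelihood, TMM, default filter) in R 4.3.3 over all rows, and a call was an adjusted p under 0.05. SEs and 95% intervals derive from the edgeR F statistic. The method was tested on simulated data. Named members were all called members, the 12 most abundant, the 4 with the smallest p, the most abundant of each family number, and the other arm of each, 24 in all. Seed mates were not followed, as no tested member had a sequence. The rows miR-466n-3p, miR-669n and miR-669g were added after their values were seen. Alternatives were other scalings and filters, DESeq2 1.42.0, limma-voom (limma 3.58.1), a block for the replicate number, and each library left out. Positions come from GENCODE M21 by name. Mir297-1 on chromosome 7 matched no row by name, and whether it also yields reads of miR-297a-5p is not known. Reads carry no molecular identifiers.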

Additional observations from a re-analysis of the deposited data

Results flagged for a closer look

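In 17 sets of values checked in both groups, that is in 34 groups of 6, 5 values from 3 livers lay far from the rest of their group. Chance alone gives about 1 in 20 groups checked, and 3 of the 5 values are not independent. Water liver 2, the deepest library, had the lowest miR-467a-5p of its group, at 44.7 CPM against 60.2 CPM in the next. It was also the lowest in the sum of all 65 rows, at 97.5 CPM against 112 CPM, and in the sum of the Sfmbt2 rows, at 91.3 CPM against 107 CPM. These 3 share the counts of miR-467a-5p. Water liver 3 had the highest miR-467e-5p, at 5.63 CPM against 4.43 CPM. Water liver 4 had the highest miR-466p-3p, at 2.21 CPM against 1.15 CPM, and without it the log2 fold change of that row was 1.57.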

How the results depend on the processing

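The number of members called (4) was the same under RLE, total-count and TMMwsp scaling and with DESeq2. It was 1 of 65 without a filter, 0 of 1 with at least 10 CPM in 6 libraries, where miR-467a-5p was the one member left, 2 with limma-voom, and 2 to 4 when 1 library was left out. The call of miR-466p-3p was kept in 19 of 19 alternatives and that of miR-669o-3p in 18, the exception being no filter (adjusted p = 0.06). The call of miR-466d-3p ended without water replicate 1, 3, 4, 5 or 6 or PZH replicate 3, 4, 5 or 6, with limma-voom, with the replicate block and without a filter (adjusted p over all alternatives 0.0132 to 0.114). That of miR-466m-3p ended without water replicate 1, 5 or 6 or PZH replicate 3, 4, 5 or 6, with limma-voom and without a filter (adjusted p over all alternatives 0.00922 to 0.103). Values near 0 changed sign. For miR-467c-5p (-0.01) they were 0.0255 with RLE, 0.0322 with total-count scaling, 0.0204 without a filter, 0.0240 with DESeq2 and -0.21 to 0.24 without 1 library. For miR-669p-5p they were 0.000732 with total-count scaling and -0.16 to 0.0924 without 1 library. For miR-467a-5p they were 0.00891 with the filter of 10 CPM and -0.20 to 0.0270 without 1 library, for miR-467e-5p -0.0211 to 0.31 and for miR-669c-5p -0.0760 to 0.25. Without 1 library the median log2 fold change of members ran from -0.07 to 0.18, the log2 ratio of the summed level (-0.04) from -0.12 to 0.03, the difference in detected members (-2.67) from -4.63 to -1.23, and calls over all miRNAs (129) from 99 to 139. In the fit with a replicate block, 3 members and 114 miRNAs were called. Same-numbered libraries correlated at -0.15 to 0.08 after centring on group means, 1 of 6 water libraries correlated best with its own number, and no label says that numbers pair animals. The cause of these changes was not tested, apart from fewer members tested under the strict filter. Depth is 1 limit: 46 of 65 rows had under 100 counts over all 12 libraries.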
